A study of Mus musculus with 3 samples.

Results

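Levels of 9 genes of haem and iron handling were followed through single cells sorted from mouse bone marrow: the haem synthesis enzymes Alas1, Alad, Uros, Urod, Cpox, Ppox and Fech, the transferrin receptor Tfrc and the mitochondrial iron carrier Slc25a37 (mitoferrin 1). They were chosen by name from the 27998 genes counted, and all 9 were found. Cells holding at least 0.5% of their UMIs (unique molecular identifiers, 1 per captured RNA molecule) in the haemoglobin genes Hbb-bs, Hbb-bt, Hba-a1 and Hba-a2 were kept apart. The others were divided into 5 bands by Mpo UMIs per 10000 UMIs of the cell: below 3, 3 to below 10, 10 to below 30, 30 to below 80, and 80 or more.

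Haem is built in a chain of steps that starts and ends in mitochondria. ALAS makes the first committed precursor, as the general form ALAS1 or the erythroid form ALAS2. ALAD, UROS and UROD then act in the cytosol, where the porphyrin ring is built and trimmed, and CPOX, PPOX and FECH finish it in the mitochondrion, where FECH inserts iron. TFRC brings in iron bound to transferrin, and SLC25A37 passes it into the mitochondrion. Red cell precursors make haem for haemoglobin; the granule enzyme myeloperoxidase, the product of Mpo in early neutrophil precursors, also carries haem.

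The 3 libraries came from CD133+ bone marrow cells of C57BL/6 mice, sorted by flow cytometry. The control and young libraries were labelled 3 months of age, and the old library 27 months; the series' design text gives 18.5 months for old mice, and calls the cells intestinal. Cells of 3 mice were pooled in each library, with no map from cells to mice, and no treatment or allele is named for any of them. The deposited matrices held 10869 control, 8362 young and 10597 old cells, of which 9780, 7378 and 9681 passed the limits on genes, mitochondrial UMIs and total UMIs. The haemoglobin-rich cells among these numbered 6, 31 and 4, and the other 9774, 7347 and 9677 were banded. Median UMIs per banded cell were 9561, 10168 and 12690. With 1 library per group of mice there is no replicate and no test: levels are UMIs per 1000000 UMIs (CPM) of summed cells, intervals are 95% intervals of counting error only, and age, mice and library cannot be told apart.

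The label of the series calls the cells endothelial-like. In banded cells the sort marker Prom1, the gene of CD133, lay at 52.6, 44.0 and 45.7 CPM in the control, young and old libraries, and 6 endothelial markers (Cdh5, Pecam1, Kdr, Emcn, Tek and Egfl7) summed to 7.76, 11.3 and 8.93 CPM. Tek had no UMI in the control and old libraries, which allows up to 0.0385 and 0.0309 CPM by its Poisson interval, and Cdh5 none in the old (up to 0.0309 CPM). The 6 markers of neutrophil precursors (Ltf, Camp, Ngp, Cebpe, Lcn2 and Chil3) summed to 132095, 122080 and 113918 CPM. The RNA of these markers thus goes against the label, though the function of the cells was not measured here. The cells are named here by their Mpo level. Cells with markers of another blood cell type made up 2.03%, 17.3% and 1.85% of the banded cells, so the young library stood apart, and its values without these cells are given where they differ most. Haemoglobin UMIs in banded cells were 33.2, 124 and 7.37 CPM. After removal of the library suffix, 125 barcodes were shared by control and young, 161 by control and old, and 120 by young and old. Doublets were not removed.

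The genes lie on several chromosomes (GRCm38, GENCODE M21). Alas1 spans chr9:106233455-106248654 on the minus strand, Alad chr4:62509169-62519918 minus, Urod chr4:116989965-116994413 minus, Tfrc chr16:32608920-32632794 plus, Cpox chr16:58670292-58717636 plus, Ppox chr1:171275990-171281186 minus, Uros chr7:133686243-133710072 minus and Slc25a37 chr14:69241848-69285112 minus. The counts cover exons at the 3′ ends of transcripts. Alas1, Uros, Cpox, Ppox and Slc25a37 overlap another annotated gene on the opposite strand, and Slc25a37 also overlaps Gm20236 on its own strand.

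The 250 bases upstream of 4 of these genes are shown. Tfrc had the widest ratio between the outer Mpo bands in each library, Cpox was past 1.5 times in each, and Urod and Ppox had the smallest ratios. The sequences are from RefSeq (GRCm38.p6), written 5′ to 3′ along the gene's strand, and none overlaps an annotated exon. Capitals mark matches on either strand to 5 short motifs. CACGTG is the E-box. Both forms of the GATA motif were searched, the first written AGATAA. The second form is written TGATAA. The box bound by NF-Y is written CCAAT. The GC box is written GGGCGG.
Tfrc, chr16:32608646-32608895, plus strand: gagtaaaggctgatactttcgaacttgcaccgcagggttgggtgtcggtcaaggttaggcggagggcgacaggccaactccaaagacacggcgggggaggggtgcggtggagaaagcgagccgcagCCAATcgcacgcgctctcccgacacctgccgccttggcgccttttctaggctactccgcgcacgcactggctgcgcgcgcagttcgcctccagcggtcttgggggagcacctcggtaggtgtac
Cpox, chr16:58669958-58670207, plus strand: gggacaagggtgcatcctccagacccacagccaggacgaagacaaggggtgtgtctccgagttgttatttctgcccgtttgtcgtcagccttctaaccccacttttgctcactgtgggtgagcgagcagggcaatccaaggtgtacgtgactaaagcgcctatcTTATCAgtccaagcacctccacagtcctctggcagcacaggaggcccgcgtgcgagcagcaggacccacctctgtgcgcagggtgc
Urod, chr4:116994414-116994663, minus strand: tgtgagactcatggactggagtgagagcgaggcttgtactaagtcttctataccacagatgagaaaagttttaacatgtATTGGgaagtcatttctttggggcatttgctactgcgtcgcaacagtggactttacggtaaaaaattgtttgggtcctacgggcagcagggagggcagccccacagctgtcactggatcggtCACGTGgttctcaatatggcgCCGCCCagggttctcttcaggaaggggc
Ppox, chr1:171281187-171281436, minus strand: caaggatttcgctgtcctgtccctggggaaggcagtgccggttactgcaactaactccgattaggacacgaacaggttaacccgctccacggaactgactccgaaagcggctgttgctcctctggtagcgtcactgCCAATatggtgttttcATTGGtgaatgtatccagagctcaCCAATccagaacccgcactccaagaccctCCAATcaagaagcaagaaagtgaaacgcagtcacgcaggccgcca
Tfrc held 1 CCAAT match, Cpox 1 TGATAA match, Urod 1 match each to the E-box, the CCAAT and the GC box letters, and Ppox 4 CCAAT matches. Windows were read for 7 of the members, 1 each, the one nearest the GENCODE start, and that of Fech was not read. CACGTG was found in 3 of the 7 (Alad, Uros and Urod), against 6.02% of all 32851 windows, which can hold several per gene. CCAAT was found in 4 of the 7, against 33.8%, and GGGCGG in 4 of the 7, against 32.7%. TGATAA was found in 1 of the 7, against 7.94%, and AGATAA in 0 of the 7, against 9.99%. Of these windows, those of Alas1, Alad and Uros, not shown, overlap annotated exons, that of Uros an exon of Bccip. The starts used for Alas1 and Uros lie 700 and 777 bases from the GENCODE starts. A match is a run of letters in these windows and was not tied to any of the levels.

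The first comparison follows the genes from the cells with least to the cells with most Mpo. Of the 8 members at 10 CPM or more in either outer band, 7 were higher by at least 1.5 times in the highest band in the control library (Alas1, Alad, Urod, Cpox, Fech, Tfrc and Slc25a37), where 54.4% of 6228 genes were. In the young and old libraries 6 of 8 were higher, the same genes without Urod, where 48.2% of 6544 and 56.1% of 6160 genes were. Without cells holding markers of other blood cells, 6, 7 and 6 of 8 were higher, as Urod crossed the limit in the control (0.57) and young (0.59) libraries. The shares of all genes were not recomputed without those cells. With all banded cells, none of the 8 was lower in any library, against 11.6%, 10.6% and 11.5% of all genes. Of the outer bands, Alad, Cpox, Fech and Slc25a37 reached 10 CPM in the highest only, in all 3 libraries. So did Tfrc in the young and old libraries. The filter thus let these genes in only as higher, which also bears on the medians below. All genes were filtered in the same way. Granule, S100 and haemoglobin genes, which lower the CPM of all others, took 45.0%, 41.9% and 42.4% of UMIs in the lowest band and at most 14.2% in the highest. The median log2 ratio of all tested genes was 0.68, 0.56 and 0.73, and that of the members tested 1.57, 1.54 and 1.21.

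**Figure D1:**
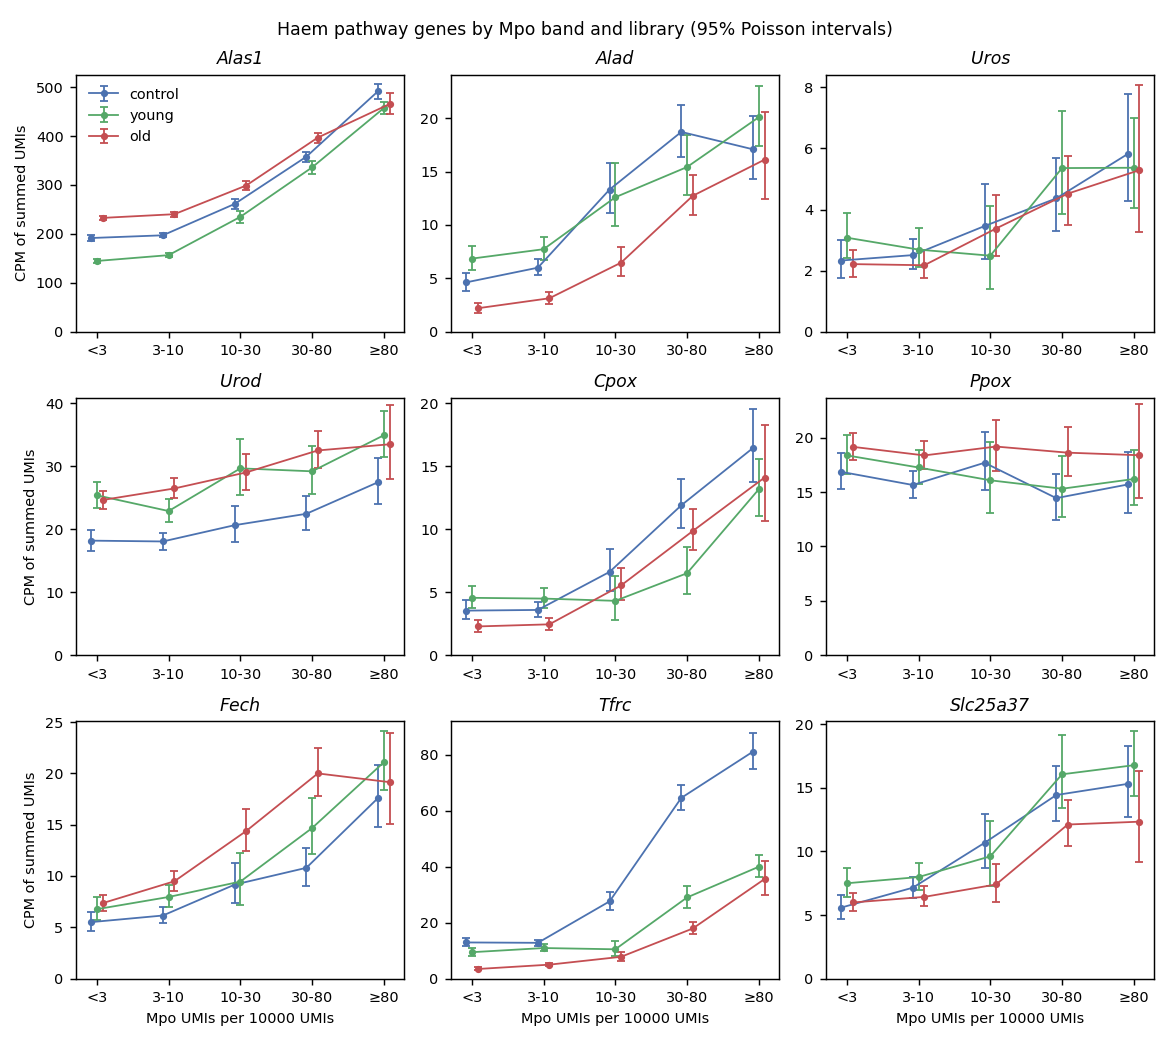
Level of each member (CPM of summed UMIs, axis from 0) against the Mpo band of the cells (UMIs per 10000) in the control, young and old libraries, with 95% Poisson intervals. Tfrc, Alas1 and Cpox climb with Mpo, Ppox stays between 14.4 and 19.2 CPM, and the control library lies above the others for Tfrc.

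Alas1, the first enzyme, was higher in each band than in the one before in all 3 libraries, beyond counting error for every step but the first of the control library. From the lowest to the highest band its level was 191, 197, 261, 358 and 492 CPM in the control library. It was 145, 156, 235, 336 and 457 CPM in the young library, and 233, 240, 299, 397 and 466 CPM in the old. The 3 libraries thus lay far apart in cells low in Mpo and close together in cells high in Mpo. The log2 ratio of the outer bands was 1.36 (interval 1.30 to 1.42) in the control, 1.66 (1.60 to 1.73) in the young library, and its interval was 0.93 to 1.07 in the old, so that no 2 of these intervals overlapped. Relative to the median gene the rise was 0.68, 1.10 and 0.27. The share of cells with an Alas1 UMI, with each cell thinned to 3000 UMIs, went from 41.8% to 69.8%, from 31.5% to 71.7% and from 47.5% to 71.5%. Without thinning these shares were 72.7% and 93.02%, 63.4% and 94.97%, and 85.8% and 95.07%.

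The cytosolic enzymes did not move as a block. Alad, which joins 2 molecules of the first precursor, went from 4.62 to 17.1 CPM in the control, from 6.85 to 20.1 CPM in the young and from 2.19 to 16.1 CPM in the old library. Its log2 ratios were 1.89 (1.52 to 2.26), 1.55 (1.248 to 1.86) and 2.88 (2.41 to 3.35). Without cells holding markers of other blood cells, the young ratio was 2.21 (1.83 to 2.60), 20.9 against 4.52 CPM. Alad in the old library was below both other libraries beyond counting error in the 3 lowest bands, and differed from neither beyond it in the highest. Urod went from 18.2 to 27.5, from 25.4 to 34.9 and from 24.7 to 33.5 CPM, log2 ratios of 0.60, 0.46 and 0.44. Relative to the median gene Urod stood at -0.09, -0.10 and -0.29, and with granule, S100 and haemoglobin genes left out of the totals its ratios turned to -0.05, -0.10 and -0.15. Uros stayed under 10 CPM in every band, at 2.33 to 5.82, 2.49 to 5.37 and 2.17 to 5.29 CPM. Its log2 ratio was 1.32 (0.73 to 1.91), 0.80 (0.27 to 1.33) and 1.26 (0.51 to 1.95).

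The last 3 enzymes, which act in mitochondria, parted. Cpox went from 3.53 to 16.5 CPM in the control, from 4.55 to 13.2 CPM in the young and from 2.28 to 14.1 CPM in the old library, log2 ratios of 2.22 (1.82 to 2.63), 1.53 (1.16 to 1.92) and 2.63 (2.14 to 3.11). In the young library Cpox was at 4.55, 4.49 and 4.31 CPM in the 3 lowest bands, and at 2.86, 3.37 and 4.11 CPM without cells holding markers of other blood cells. Its young log2 ratio was then 2.23 (1.75 to 2.72), 13.4 against 2.86 CPM. Fech went from 5.50 to 17.6, from 6.76 to 21.1 and from 7.35 to 19.1 CPM, log2 ratios of 1.68, 1.64 and 1.38. Ppox was at 16.9 and 15.7 CPM in the outer bands of the control library, 18.4 and 16.2 in the young and 19.2 and 18.4 in the old. Its log2 ratios of -0.10 (-0.40 to 0.19), -0.18 (-0.45 to 0.08) and -0.06 (-0.42 to 0.29) held 0. They became -0.75, -0.74 and -0.65 with granule, S100 and haemoglobin genes left out of the totals, and 0.30, 0.14 and 0.22 per cell. Ppox therefore fell short of the median gene by 0.78, 0.74 and 0.79 on the log2 scale.

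Iron uptake had the widest range of the 9. Tfrc measured 12.9, 12.8, 27.6, 64.5 and 81.0 CPM from the lowest to the highest band in the control library. It measured 9.40, 10.9, 10.4, 29.0 and 39.9 CPM in the young library, and 3.40, 4.96, 7.76, 17.9 and 35.5 CPM in the old. The level first differed from that of the band before, beyond counting error, at the band from 10 in the control library, at the band from 30 in the young and at the band from 3 in the old. The log2 ratios of the outer bands were 2.65 (2.46 to 2.85), 2.09 (1.84 to 2.33) and 3.38 (3.04 to 3.72). Thinned to 3000 UMIs, 4.07% of control cells had a Tfrc UMI in the lowest band and 20.3% in the highest, against 2.72% and 11.6% in the young and 0.976% and 11.3% in the old library. The unthinned shares were 10.7% and 56.6%, 7.95% and 33.5%, and 3.73% and 36.6%. Slc25a37 went from 5.58 to 15.3, from 7.50 to 16.8 and from 5.98 to 12.3 CPM, log2 ratios of 1.46, 1.16 and 1.04. Its level did not change beyond counting error between the bands 30 to below 80 and 80 or more in any library.

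**Figure D2:**
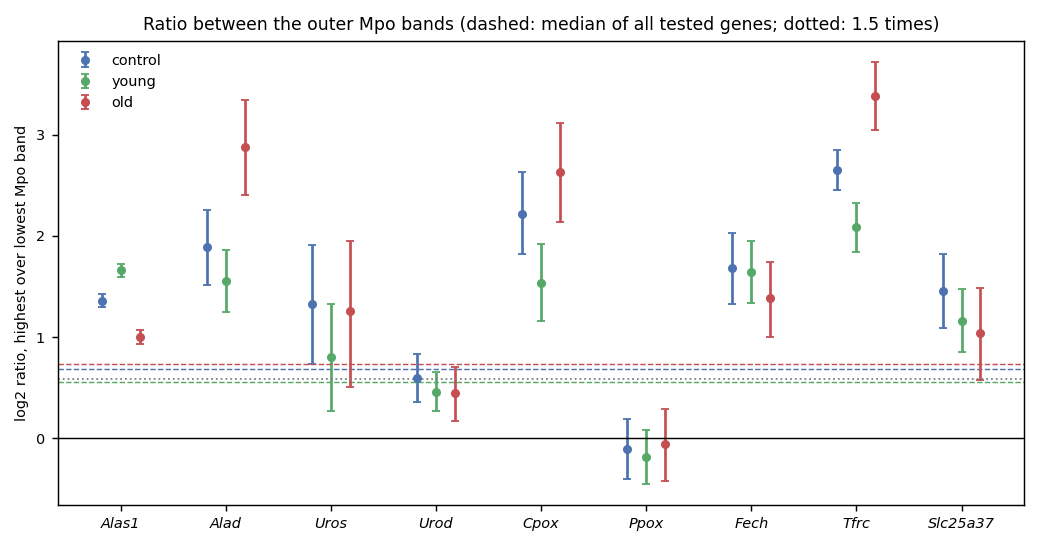
log2 ratio of each member between the highest and the lowest Mpo band in each library, with 95% conditional binomial intervals; dashed lines mark the median of all tested genes (0.68, 0.56 and 0.73) and the dotted line 1.5 times. Tfrc is highest in every library, Urod lies near the medians and Ppox near 0.

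The erythroid enzyme Alas2 had at most 7 UMIs in any band of any library and 0 in all bands of the old library, which allows up to 0.0309 CPM. Over the 15 groups of band and library, the members were most alike for Uros and Cpox (Pearson r = 0.93 of log2(CPM + 1)) and for Alad and Slc25a37 (r = 0.93). These groups share 3 libraries and the trend with Mpo, so the values are a description. Among 5588 genes the patterns most like the summed enzymes were those of Cope (r = 0.99), Srp54b (0.99) and Hibch (0.98). The most like Tfrc were Gm10053 (0.99), Fiz1 (0.98) and Ppid (0.98), and the most like Slc25a37 were Nudcd3 (0.98), Ankrd27 (0.98) and Acot7 (0.97).

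The second comparison sets the old library beside the young one. Of the 7 members at 10 CPM or more in either library, Alad and Tfrc were lower by at least 1.5 times. That is 2 of 7, where 14.7% of 5756 genes were lower, and 0 were higher, where 4.4% were. Alad, Tfrc and Slc25a37 reached 10 CPM in the young library only, so the filter let them in only as lower. Alad did so barely, at 10.4 CPM (9.65 to 11.1). The median log2 ratio of the 7 was 0.03, and that of all tested genes -0.15. Tfrc measured 7.28 CPM in the old and 16.3 CPM in the young library, a log2 ratio of -1.16 (-1.29 to -1.04). Alad measured 4.76 and 10.4 CPM, a log2 ratio of -1.12 (-1.28 to -0.97). Alas1 went the other way, at 271 and 219 CPM, a log2 ratio of 0.30 (0.28 to 0.33), short of 1.5 times. Slc25a37 was at 7.26 and 10.0 CPM (log2 ratio -0.47), Fech at 10.8 and 10.2 CPM (0.08), Urod at 27.0 and 26.5 CPM (0.03) and Ppox at 18.8 and 17.2 CPM (0.13). Uros and Cpox were below 10 CPM in both libraries, with log2 ratios of -0.34 and -0.55.

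The libraries differed in their share of cells by band: cells in the highest band were 6.74% of the control, 11.9% of the young and 2.93% of the old library. Within bands, the old library was below the young one for Tfrc in 5 of 5 bands, by log2 ratios of -1.47, -1.14, -0.43, -0.70 and -0.17 from the lowest to the highest, with the interval below 0 in 3. For Alad it was also below in 5 of 5 bands, by -1.64, -1.31, -0.96, -0.28 and -0.32, with the interval below 0 in the lowest 3. Alas1 was above in 5 of 5 bands, by 0.69, 0.62, 0.35, 0.24 and 0.03, and reached 1.5 times in the lowest pair of bands, though without cells holding markers of other blood cells in the lowest band alone (0.60, against 0.55 in the next). In the highest band the intervals of all 3 genes held 0, so the difference between these libraries was not detectable there. With the 5 bands weighted equally, the log2 ratio of Tfrc was -0.52, no longer past 1.5 times, and that of Alad -0.63. Cpox was below in the lowest 2 bands beyond counting error (2.28 against 4.55 and 2.44 against 4.49 CPM). It was above in the band 30 to below 80 (0.60), and with equal weights its ratio was 0.05. Without cells holding markers of other blood cells the lowest band gave 2.24 against 2.86 CPM, a log2 ratio of -0.35 whose interval (-0.84 to 0.15) held 0. The band 3 to below 10 then gave 2.33 against 3.37 CPM, a log2 ratio of -0.53 (-0.99 to -0.08).

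**Figure D3:**
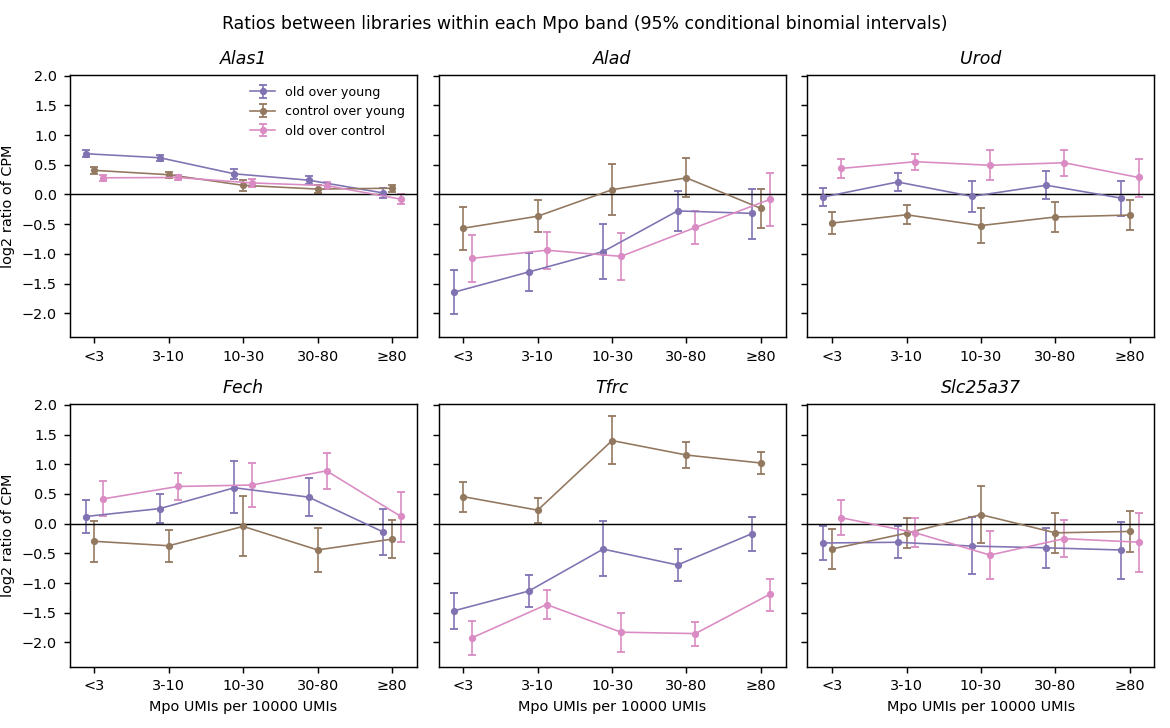
log2 ratio of CPM between libraries within each Mpo band for 6 members, with 95% conditional binomial intervals. For Alas1, Alad and Tfrc, old over young runs from 0.69, -1.64 and -1.47 in the lowest band to 0.03, -0.32 and -0.17 in the highest; control over young for Tfrc lies above 0 in all 5 bands.

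Markers of other cells also differed between the libraries. Haemoglobin UMIs and 18 erythroid markers in banded cells had the same order as Alad, young over control over old, the erythroid markers at 33.1, 9.54 and 4.52 CPM. Tfrc and Alas1 had other orders. Car2 was the largest part of the erythroid markers, at 16.9, 4.90 and 2.53 CPM, and 9 of the 18 had a UMI in the old library. In the haemoglobin-rich cells of the 3 libraries together there were 0.156 Alad UMIs per 100 haemoglobin UMIs. At that ratio the haemoglobin UMIs of banded cells would carry 0.0519, 0.194 and 0.0115 CPM of Alad in the control, young and old libraries. The ratio comes from cells chosen for high haemoglobin, so it need not hold in banded cells. Of the 111 Alad UMIs in young haemoglobin-rich cells, 54 lay in the 18 cells below 10% haemoglobin. The source of Alad in banded cells was not tested. Without every cell that held a haemoglobin UMI, the log2 ratio of old over young was -1.09 for Alad and -1.07 for Tfrc. That left 33.8% of the young and 93.5% of the old banded cells, so the 2 libraries were not cut alike. Young cells with markers of B cell progenitors held Alad at 35.3 CPM and Tfrc at 35.3 CPM, and those with NK and T cell markers held Alad at 24.6 CPM. Erythroid markers were not used to leave cells out, and the young cells left in held 19 of the library's 20 banded Alas2 UMIs. Without cells holding markers of the listed other blood cell types, Alad was at 8.82 CPM in the young and 4.58 CPM in the old library. Its log2 ratio was -0.94, with both levels then below the minimum of 10 CPM, and Tfrc kept -1.12. In the lowest band Alad then stood at 4.52 and 2.13 CPM, a log2 ratio of -1.09 (-1.52 to -0.65).

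The third comparison, of the control and young libraries, sets 2 libraries of 3-month-old mice beside each other. Of 7 members, 1 was higher by at least 1.5 times in the control, Tfrc, where 1.62% of 5724 genes were, and 0 were lower, where 6.62% were. Alad, Fech and Slc25a37 reached 10 CPM in the young library only, so they could be counted only as lower. The median log2 ratio of the 7 members was -0.20 and that of all tested genes -0.06. Tfrc measured 26.7 and 16.3 CPM, a log2 ratio of 0.71 (0.61 to 0.81). It was higher in 5 of 5 bands, by 0.45, 0.23, 1.40, 1.16 and 1.02. The Tfrc levels of libraries of the same labelled age thus differed past the same limit as those of the young and old libraries. Urod was lower in 5 of 5 bands, at 19.7 and 26.5 CPM over all (log2 ratio -0.43, -0.52 to -0.34). Alas1 was higher in 5 of 5 bands, at 248 and 219 CPM (0.17, 0.14 to 0.20). Alad measured 8.97 and 10.4 CPM, a log2 ratio of -0.21 that was -0.01 without the cells holding markers of other blood cells.

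Old over control shares its libraries with the comparisons above, and its values are given beside them. Of 5 members tested, 1 was lower by at least 1.5 times, Tfrc, where 8.74% of 5467 genes were, and 0 were higher, where 5.38% were. Tfrc reached 10 CPM in the control library only and Fech in the old library only, so the filter fixed the direction of both. The median log2 ratio of the 5 was 0.23 and that of all tested genes -0.08. Tfrc, at 7.28 and 26.7 CPM, had a log2 ratio of -1.88 (-1.99 to -1.77) and was lower in 5 of 5 bands, by -1.92 to -1.19. Fech was higher in 5 of 5 bands, at 10.8 and 7.84 CPM over all (0.47, 0.34 to 0.60), and Urod in 5 of 5 bands, at 27.0 and 19.7 CPM (0.46, 0.37 to 0.54). The intervals of both were above 0 in 4 of the 5 bands. Alad was below the minimum in both libraries, with a log2 ratio of -0.91. From lowest to highest the libraries were old, young and control for Tfrc, and young, control and old for Alas1, with no neighbours within counting error in either. For Urod and Fech the young and old libraries did not differ beyond counting error over all banded cells. Within bands, old over young had its interval above 0 in 3 of 5 bands for Fech, by 0.25, 0.60 and 0.45 from the band 3 to below 10 upwards, and in 1 of 5 for Urod (0.21).

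Levels of the members were mostly higher in cells with more cell cycle UMIs, though for most members the interval held 0 in most groups. Cells with 10 or more UMIs of 15 cell cycle genes per 10000, a limit chosen after the data were seen, made up 55.7% to 98.98% of the cells of a band. In each Mpo band from 10 upwards the other cells numbered only 10 to 92, and some members had 0 UMIs in them. The Alas1 level of the cells with more cell cycle UMIs was above that of the other cells in 14 of 15 groups, and the interval was above 0 in 12. Alad and Cpox were also above in 14 groups, with the interval above 0 in 7 and 3, and below 0 in 1 for Alad. Fech was above in 13, Urod in 12, Uros and Ppox in 11 and Slc25a37 in 10. The interval was above 0 in only 4 groups for Fech, 5 for Urod, 1 for Uros, 5 for Ppox and 1 for Slc25a37. The same counts over all genes were not made, so these are not a result about the members. Tfrc was above in 11 of 15 groups, with the interval above 0 in 6 and below 0 in 1. That 1 was the highest band of the control library (78.8 against 141 CPM, the latter from 38 cells). In the lowest band of the old library Alas1 was at 251 and 199 CPM and Tfrc at 4.27 and 1.83 CPM.

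The haemoglobin-rich cells were few and showed another pattern. Their median haemoglobin share was 55.2%, 6.25% and 3.40% of UMIs in the control, young and old libraries. The cells nearest to the limit of 0.5% lay at 0.361% and 1.02% in the control, 0.454% and 0.536% in the young and 0.429% and 1.28% in the old library. Of 18 erythroid markers found in the files, 16, 18 and 16 had a UMI in the haemoglobin-rich cells, and 17, 18 and 9 in banded cells. The markers summed to 6799, 6593 and 4636 CPM in the haemoglobin-rich cells, against 9.54, 33.1 and 4.52 CPM in banded cells. Neutrophil precursor markers were present in the haemoglobin-rich cells too, at 45804, 64633 and 96313 CPM. These cells or droplets thus did not hold erythroid RNA alone. The part of doublets and free RNA was not tested. The old library's group is 4 cells.

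Since haemoglobin fills much of their UMIs, levels in these cells are given as CPM of the UMIs other than haemoglobin. In the young library, 31 cells with 284583 such UMIs, Alad stood at 390 CPM against 10.4 CPM in banded cells, a log2 ratio of 5.23 (4.93 to 5.52). Cpox stood at 302 against 5.90 CPM (5.68), Uros at 98.4 against 3.44 CPM (4.84), Urod at 330 against 26.5 CPM (3.64) and Fech at 316 against 10.2 CPM (4.95). Ppox, which did not follow Mpo, stood at 119 against 17.2 CPM (2.80). The iron genes were higher as well, Slc25a37 at 253 against 10.0 CPM (4.66) and Tfrc at 183 against 16.3 CPM (3.49). Alas1 alone of the 9 was lower, at 134 against 220 CPM (-0.72, -1.22 to -0.26), while Alas2, outside the 9, stood at 524 against 0.269 CPM.

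The young cells could be divided further, at 10% haemoglobin. In the 13 cells at 10% or more, Fech was found in 13 of 13 cells at 700 CPM, against 130 CPM in the 18 cells below. Cpox stood at 635 and 141 CPM, Alad at 614 and 282 CPM, and Slc25a37 at 603 and 83.4 CPM. Tfrc stood at 377 and 88.7 CPM, and Ppox at 269 and 46.9 CPM. Alas1 was level in CPM, at 129 and 136, but its 12 and 26 UMIs lay in 3 of 13 and 13 of 18 cells. Alad lay in 6 of the 13 cells, and Cpox and Tfrc each in 4 of the 18. Alas2 went from 88.7 CPM in the 18 cells to 1422 CPM in the 13.

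**Figure D4:**
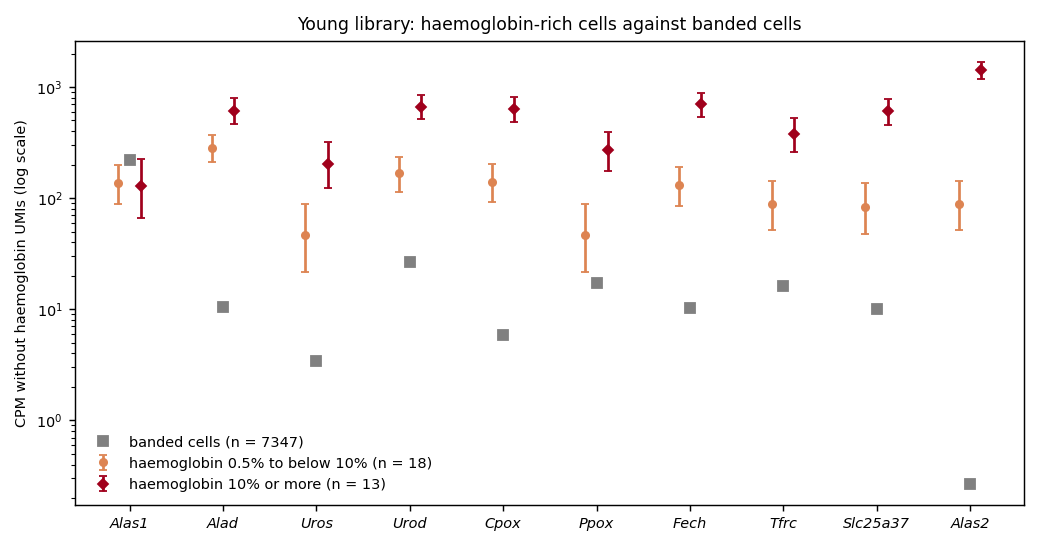
Levels in the young library, in CPM of UMIs other than haemoglobin (log axis), in banded cells (squares, n = 7347), in cells with 0.5% to below 10% haemoglobin (circles, n = 18) and in cells with 10% or more (diamonds, n = 13), with 95% Poisson intervals. All members but Alas1 lie above the banded cells, and Alas2, not a member, has the widest gap.

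The control and old libraries gave fewer such UMIs, 26494 in 6 cells and 40229 in 4 cells. In the control library Fech had 27 UMIs, 1019 CPM against 7.84 CPM in banded cells, and Slc25a37 18 UMIs, 679 CPM against 8.74 CPM. Alas1 had 2 UMIs there, 75.5 CPM against 248 CPM, a log2 ratio of -1.71 whose interval (-4.76 to 0.14) held 0. In the old library Cpox had 11 UMIs, all in 1 of the 4 cells, 273 CPM against 4.03 CPM. Alas1 had 11 UMIs in 2 cells, 273 CPM against 271 CPM. Slc25a37 had 0 UMIs in the old haemoglobin-rich cells, which allows up to 91.7 CPM by the Poisson interval, above the 7.26 CPM of banded cells.

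The other genes of iron and haem handling were read from lists, with the same limit of 1.5 times, past which 54.4%, 48.2% and 56.1% of all genes were higher in the highest Mpo band of the control, young and old libraries. Of 7, 7 and 6 genes tested on a list for transport of haem precursors, glycine and iron in mitochondria, 5, 6 and 4 were higher there. None was lower. Not every gene on the list is a carrier. Abcb10, a mitochondrial transporter that partners mitoferrin 1, went from 6.22 to 28.7, from 6.20 to 29.9 and from 3.43 to 32.5 CPM. Of 11 iron-sulphur cluster genes tested in each library, 9, 8 and 8 were higher and 0 lower; the chaperone Hspa9 went from 20.6 to 156 CPM, from 20.98 to 102 CPM and from 12.6 to 128 CPM. Of 6, 7 and 6 genes of iron uptake, storage and export, 3, 3 and 4 were higher and 0 lower, shares near those of all genes; among the higher was the ferritin light chain Ftl1, from 1871 to 3104, from 1912 to 3070 and from 2301 to 3534 CPM. Hfe, which binds the transferrin receptor, went from 1.93 to 15.3, from 3.03 to 19.3 and from 2.62 to 16.6 CPM. Of the outer bands, Abcb10 and Hfe reached 10 CPM in the highest only, so they could be counted only as higher.

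Some genes went down with Mpo. Of all genes, 11.6%, 10.6% and 11.5% were lower by at least 1.5 times in the control, young and old libraries. Of 8, 9 and 9 genes of haem export, breakdown, binding and sensing, 6, 3 and 6 were higher and 1, 2 and 2 lower. Hmox1, the haem-degrading oxygenase, went from 16.3 to 3.42, from 15.5 to 5.27 and from 22.5 to 4.79 CPM. Its level reached 10 CPM in the lowest of the outer bands only, so it could be counted only as lower. Of 8 genes tested in each library from a list of haem proteins other than Mpo, 7 were higher and 1 lower, the latter near the share of all genes. The list also holds Cox10, an enzyme that modifies haem. The lower gene was the phagocyte oxidase subunit Cybb, from 680 to 131, from 743 to 159 and from 632 to 163 CPM. Among the iron-sensing genes, Fbxl5, which marks iron regulatory proteins for degradation when iron is plentiful, went from 43.0 to 23.3, from 28.1 to 17.4 and from 62.1 to 22.7 CPM. Ireb2, which encodes 1 of those proteins, was tested in the young library and was higher there, from 8.36 to 12.7 CPM. It reached 10 CPM in the highest band only, so it could be counted only as higher. Of 15 cell cycle genes, 7, 7 and 8 were higher, near the shares of all genes (54.4%, 48.2% and 56.1%), and 5, 5 and 2 lower.

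Between libraries few of these genes passed the limit. Of all genes, 4.4% were higher and 14.7% lower in old over young. Fbxl5 was 1 of 1 iron-sensing gene tested and was higher in the old than in the young library, at 55.4 and 25.6 CPM, a log2 ratio of 1.11 (1.04 to 1.19). Abcb10 was 1 of 4 genes tested on the mitochondrial transport list and was lower, at 7.48 and 12.0 CPM (-0.68, -0.81 to -0.54). No gene of the other lists passed between old and young: 0 of 5 for iron uptake, storage and export, 0 of 11 for iron-sulphur clusters, 0 of 8 for haem export, breakdown, binding and sensing, 0 of 7 on the list of haem proteins and 0 of 15 cell cycle genes. In the control over the young library Blvrb, a biliverdin reductase, was lower at 8.95 and 18.6 CPM, and the iron-sulphur co-chaperone Hscb at 6.95 and 10.5 CPM. They were 1 of 8 and 1 of 11 genes tested in their lists, where 6.62% of all genes were lower. Blvrb and Hscb, and Abcb10 above, reached 10 CPM in the young library only, so they could be counted only as lower. In the old over the control library Hspa9 was lower at 29.5 and 48.1 CPM, and cytochrome c (Cycs) at 308 and 537 CPM. These were 1 of 10 and 1 of 6 genes tested in their lists, where 8.74% of all genes were lower.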

How the data were processed

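The deposited matrices hold UMI counts per gene and cell, which the authors made without further normalization from Chromium 3′ v2 libraries; STAR, Cell Ranger 2.1.0 and mm10 are named in the submitters' processing notes. Whether depth was equalised between libraries is not given in the sources used here. Groups came from the labels. Cells were kept with at least 200 genes, at most 20% mitochondrial UMIs and total UMIs within the 5th to 95th percentile (3423 to 18081 for control, 3827 to 19857 for young and old together). Counts were summed over cells and divided by the total (CPM). Levels have exact Poisson and ratios exact conditional binomial 95% intervals, which cover counting error only. A gene was counted as higher or lower at 1.5 times, if at 10 CPM or more in either group. A gene under 10 CPM in 1 of the groups could therefore be counted in 1 direction only. No test was made. PCR duplicates are collapsed in UMI counts. The depth per cell is that of the median UMIs given above.

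Shares of cells were recomputed with each cell thinned to 3000 UMIs, and no banded cell was shallower. A cell was said to hold markers of another blood cell type at 3 or more UMIs from 2 or more of that type's genes. The erythroid list was not used for this. Named genes were the 9 members, up to 3 genes per list with the largest ratio past the limit, and the 3 genes most alike in pattern; cell groups with other markers, Prom1 and the single markers were named after their values were seen. In the erythroid list 18 of 19 symbols were found, and 11 of 13 in the list of haem export, breakdown, binding and sensing. Members and lists were chosen with earlier results of these data known. Of 27998 gene identifiers, 27645 were in GENCODE M21. The ratio, interval and band code was tested on simulated data. Tables were read with pandas 2.3.3, intervals computed with scipy 1.17.1, sums made with numpy 2.4.6 and plots drawn with matplotlib 3.10.9, in Python 3.11.15. Some results are not reported here.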

Additional observations from a re-analysis of the deposited data

How the results depend on the processing

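No paired analysis was possible because each group is 1 library. Of 186 counts of members past the limit under other settings, 168 stayed within 1.5 times of the reported count and 18 did not. The shares of all genes past the limit were not recomputed under these settings, so the counts below have no share beside them. Without cells holding markers of other blood cells, 1 member (Tfrc) was lower in old over young, since Alad fell under the minimum level. With granule, S100 and haemoglobin genes left out of the totals, 2 were lower in old over control (Alad and Tfrc), and 1 (Ppox) was lower in the highest Mpo band of each library; the ratio of Urod in the control library reversed to -0.054. This scaling shifts all ratios of the outer bands by -0.65, -0.56 and -0.59 in the control, young and old libraries, and 6, 6 and 4 members were then higher. In UMIs per cell, 1 (Alas1) was higher in old over young and 2 (Urod and Fech) in old over control, since cells of the old library held more UMIs (a shift of 0.29 and 0.33). With the 5 bands weighted equally, 1 (Alad) was lower in old over young. At a limit below 1.5 times, 2 (Urod and Fech) were lower in control over young and 2 (the same genes) higher in old over control; at 2 times, 0 were higher in control over young. With a minimum of 50 CPM, only Alas1 and in places Tfrc could be counted: 0 members were lower in old over young, 0 higher in control over young and 0 lower in old over control, and 2, 1 and 1 were higher in the highest Mpo band of the control, young and old libraries. With no minimum, 2 (Alad and Tfrc) were lower in old over control. Of 621 ratios of single members under other settings, 520 stayed inside the interval of the reported value. In all 13 took the other sign, of which only Urod in the control library had been past 1.5 times; the others were Urod in the young and old libraries, Ppox between the outer bands, and Cpox, Uros and Slc25a37 between libraries. Leaving out every cell with a haemoglobin UMI, a setting chosen after seeing the data, changed none of the counts by more than 1.5 times. It kept 76.0%, 33.8% and 93.5% of the control, young and old banded cells. With 5 bands of about equal cell number within each library, the outer-band ratio of Tfrc in the old library was 2.35. Levels below 10 CPM rest on few UMIs, and no spread between mice could be measured.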
